A study of Mus musculus with 30 samples.

Results

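The 30 libraries of colon epithelial scrapings differed widely in *Hoxb13*, a homeobox gene that marks the distal end of the gut, and the comparison described here set libraries with more *Hoxb13* transcript than others of their own group against those with less, 12 on each side. In each of the 6 groups of 5 libraries, the 2 libraries with the highest *Hoxb13* CPM (its count scaled to the library's total count) were taken as Hoxb13-high and the 2 with the lowest as Hoxb13-low. This used 24 of the 30 libraries, and the 6 middle libraries, 1 per group, entered neither set. The sets were therefore chosen by a measured value, and the values of *Hoxb13* are given as a description with no test.

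All libraries came from wild-type C57BL/6J mice that were 5 to 10 weeks old at the start, with the epithelial layer scraped off the lamina propria of the colon. The groups were females and males given vehicle (saline, i.p.) with harvest at 9 weeks, and females and males given 1 injection of azoxymethane (AOM, 10 mg/kg, a colon carcinogen) and 3 cycles of 2.5% dextran sulfate sodium (DSS, which irritates the mucosa) with harvest at 9 or 15 weeks. There was no vehicle group at 15 weeks, and the labels did not give the stretch of colon that was scraped. The study's methods call the 5 libraries of a group biological replicates. Total counts ranged from 9265804 to 30806392 per library. The mean of the high minus that of the low libraries was -2134000 counts (exact permutation test within groups, two-sided, p = 0.33). The shallowest libraries, female vehicle replicate 5 (9265804) and replicate 4 of males at 15 weeks (14619526), were both high libraries.

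The colon is patterned along its length. Hox genes lie in 4 clusters, and genes at the 5′ end of a cluster are expressed toward the posterior of the body, a layout that the adult gut epithelium keeps in part. The proximal colon is known for bacterial defence and water uptake, whereas the distal colon takes up sodium under aldosterone through the epithelial sodium channel and exchanges potassium for protons. Enteroendocrine cells, mucus glycosylation and bile acid handling also change along the gut. A scraping with more distal tissue and the same tissue with more *Hoxb13* per cell cannot be told apart in bulk RNA, and the same holds for fewer cells of a type and less RNA per cell.

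*Hoxb13* itself ranged from 38.6 to 438 CPM in the high libraries (median 195) and from 6.02 to 219 CPM in the low libraries (median 53.0). The ranking was made within groups, so the sets overlapped across groups: both low libraries of male vehicle, at 204 and 219 CPM, lay above the high median. The mean of the 2 high over the mean of the 2 low libraries was 13.1-fold in females at 15 weeks, 7.95-fold in female vehicle, 4.49-fold in females at 9 weeks, 2.64-fold in males at 15 weeks, 2.05-fold in male vehicle and 1.61-fold in males at 9 weeks. Male groups thus had the narrower contrasts. At the boundary of the sets, the second highest and the third library stood at 113.8 and 113.5 CPM in female vehicle, 430 and 309 CPM in male vehicle, 163.5 and 138 CPM in females at 9 weeks, 203 and 161.7 CPM in males at 9 weeks, 38.6 and 33.3 CPM in females at 15 weeks, and 187 and 185 CPM in males at 15 weeks. On the low side, the fourth library of males at 9 weeks had 161.2 CPM, next to the 161.7 CPM of the middle library.

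*Hoxd13*, the most 5′ gene of the *Hoxd* cluster and a second distal marker, was not used to rank. Its level was 0.161 to 282 CPM in the high libraries (median 21.8) and 0 to 24.3 CPM in the low libraries (median 0.0396). It was higher in the high libraries of all 6 groups and both high libraries lay above both low libraries in 5 of them. The exception was males at 9 weeks, where replicate 2, a low library, had 24.3 CPM beside 29.3 and 19.4 CPM in the high libraries. In females at 15 weeks *Hoxd13* was close to absent throughout, at 0.373 CPM or less. The high-low difference was 4.67 ± 0.83 (log2 fold change ± SE, adjusted p = 0.00236, edgeR quasi-likelihood test with group as covariate).

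**Figure D1:**
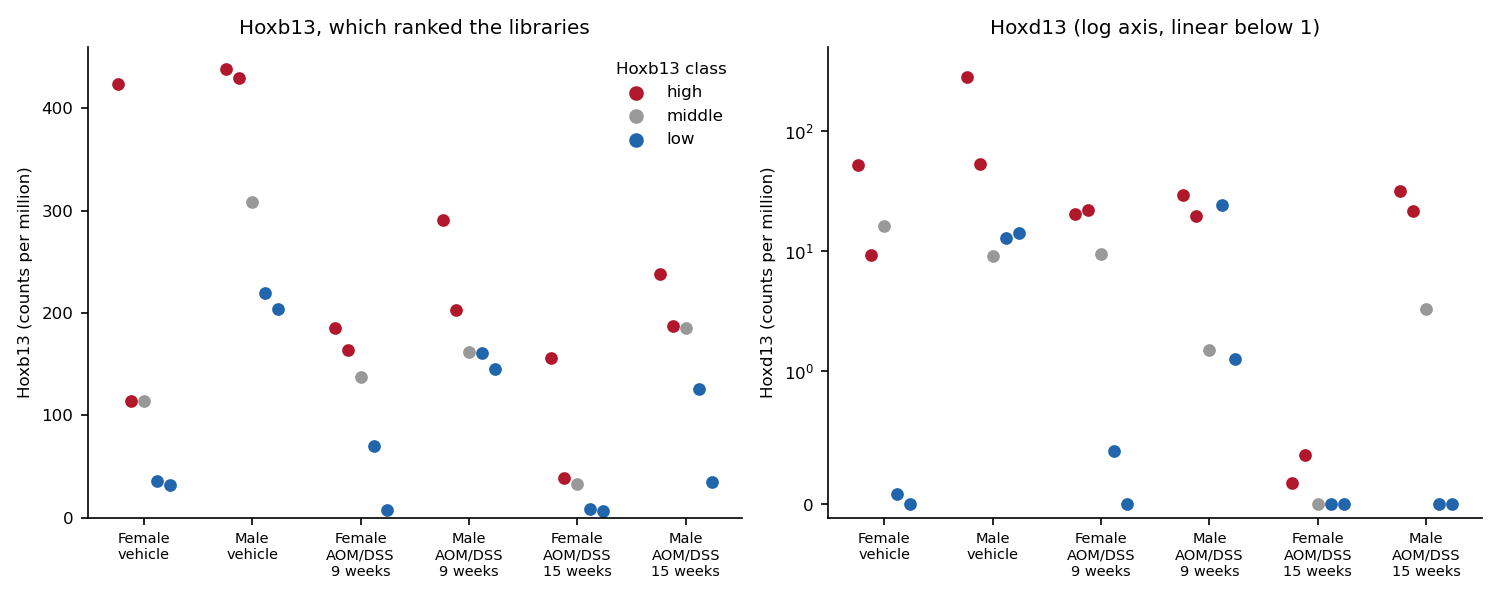
CPM of *Hoxb13* (left, linear axis) and *Hoxd13* (right, log axis that is linear below 1) in each of the 30 libraries, by group, with high libraries in red, middle in grey and low in blue. *Hoxd13* separated the red from the blue points in 5 of 6 groups, with 1 blue point at 24.3 CPM in males at 9 weeks.

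Epithelial transcripts were present in every library, with *Epcam*, an epithelial adhesion molecule, at 383 to 664 FPKM (fragments per kilobase of transcript and per number of mapped fragments) and *Cdx1*, an intestinal homeobox gene, at 100.7 to 169.9 FPKM. A high library, male vehicle replicate 1, stood apart. Its summed FPKM over the 12 smooth muscle genes was 2590, whereas the low libraries reached at most 46.4. The muscle genes *Tagln* and *Acta2* were at 567 and 495 FPKM there, beside *Epcam* at 583 FPKM. *Krt5* and *Trp63*, which define basal squamous epithelium, were at 12.8 and 0.389 FPKM there and listed at 0 in the other 29 libraries, and *Cdx2*, an intestinal homeobox gene, was at 1.23 FPKM against 18.5 to 105 FPKM elsewhere. Of 10 prostate and seminal vesicle genes, 6 had no more than 3 counts in every library. The summed FPKM of all 10 was at most 0.860 in the high libraries. It was highest, at 2.12, in replicate 5 of males at 15 weeks, a low library. Calls that were lost without this library are named beside the genes.

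Calls used the thresholds of the study: an adjusted p below 0.05, a log2 fold change of more than 0.4 up or down, and a mean FPKM of 1 or more among the high or among the low libraries. Of 16349 genes tested, 911 were called (5.57%), 433 higher (2.65%) and 478 lower (2.92%) in the high libraries. The median log2 fold change over all genes tested was 0.01. Without male vehicle replicate 1 the counts were 423 higher and 419 lower, and without replicate 5 of females at 9 weeks they were 327 and 303. Both high libraries lay above both low libraries in all 6 groups for 66 genes (0.404% of those tested), and below them for 38 genes (0.232%). Those 66 included *Mettl7a3*, *Tmprss13*, *Atp12a*, *Scg2* and *Adh1*, and the 38 included *Reg3b* and *Galnt12*. The 6 middle libraries had no part in the test. Over called genes, the middle library lay between the means of the high and the low libraries in 60.9% of gene and group pairs, against 36.4% over all genes tested, in a measure that favours genes with a wide contrast.

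The *Hox* clusters divided by position. Of 10 posterior *Hox* genes tested (paralog groups 9 to 13, *Hoxb13* left out), 4 were called higher and 0 lower, with a median log2 fold change of 0.65. Of 17 anterior and central *Hox* genes (groups 1 to 8), 1 was called higher and 6 lower, with a median of -1.42. In the *Hoxd* cluster the estimates ran from *Hoxd4* at -2.01 ± 0.68 (adjusted p = 0.0586) and *Hoxd8* at -1.42 ± 0.61 (adjusted p = 0.126), neither called, through *Hoxd9* at 0.55 ± 0.64 (adjusted p = 0.595), to the called *Hoxd10* at 3.27 ± 0.88 (adjusted p = 0.0211), *Hoxd11* at 3.63 ± 0.91 (adjusted p = 0.0144) and *Hoxd13*. *Hoxd12* had an estimate of 3.25 ± 1.13 (adjusted p = 0.0727) and was not called. Reads of *Hoxd3* and *Hoxd4*, whose annotated spans overlap, may be shared. The calls of *Hoxd10* and *Hoxd11* rested on male vehicle replicate 1: without it their mean FPKM fell below 1 and their log2 fold changes were 2.60 (adjusted p = 0.0477) and 2.97 (adjusted p = 0.0276). In females at 15 weeks both were lower in the high libraries, and both were higher in 5 of 6 groups.

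The *Hoxb* cluster went the other way next to *Hoxb13*. *Hoxb13* lies at chr11:96194316-96197447 (GRCm38), 74009 bases from *Hoxb9*, and *Hoxb9* lies 5309 bases from *Hoxb8*. All 6 genes from *Hoxb3* to *Hoxb8* were called lower, at -2.01 to -2.47, and each was lower in all 6 groups. *Hoxb6*, a central *Hox* gene, was at 0 to 17.7 FPKM in the high libraries (median 0.880) and 0.764 to 27.7 FPKM in the low libraries (median 9.77), a log2 fold change of -2.33 ± 0.64 (adjusted p = 0.0239). The ranges overlapped across groups, although both high libraries lay below both low libraries in 5 of 6 groups. *Hoxb4* was at 0 to 2.80 FPKM in the high and 0.284 to 4.58 FPKM in the low libraries (medians 0.234 and 2.04), with a log2 fold change of -2.26 ± 0.58 (adjusted p = 0.0161). *Hoxb9*, between these genes and *Hoxb13*, was at 14.4 to 40.1 FPKM in the high and 17.1 to 35.1 FPKM in the low libraries, with an estimate of -0.43 ± 0.14 that just missed the threshold (adjusted p = 0.0501).

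Calls in the *Hoxb* cluster were near the threshold. *Hoxb3* kept its call in 11 of 24 fits that each left out 1 library and lost it without male vehicle replicate 1 (adjusted p = 0.0563), while *Hoxb8* kept it in 19 (highest adjusted p 0.0632, without replicate 5 of females at 9 weeks). *Hoxb6* lost its call without male vehicle replicate 3 (adjusted p = 0.0504) and *Hoxb7* without replicate 5 of females at 9 weeks (adjusted p = 0.0559). *Hoxb4* and *Hoxb5* were called in all 24 fits.

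In the *Hoxa* cluster 11 genes were tested and 2 were called. *Hoxa13* was at 4.28 to 13.8 FPKM in the high and 1.29 to 10.2 FPKM in the low libraries, a log2 fold change of 0.75 ± 0.21 (adjusted p = 0.0262), called in 22 of 24 fits that left out 1 library; the 2 losses were without female vehicle replicate 2 (adjusted p = 0.0506) and replicate 3 (adjusted p = 0.0512). *Hoxa6*, a central gene, was higher in all 6 groups (0.87 ± 0.22, adjusted p = 0.0142). The long noncoding RNA *Hottip*, transcribed beside *Hoxa13* and known to activate 5′ *Hoxa* genes, was at 13.9 FPKM in the median high and 7.14 FPKM in the median low library (1.04 ± 0.30, adjusted p = 0.031). It was called in 16 of 24 fits that left out 1 library, with a highest adjusted p of 0.0596 without female vehicle replicate 2. No gene of the *Hoxc* cluster had enough counts to be tested.

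**Figure D2:**
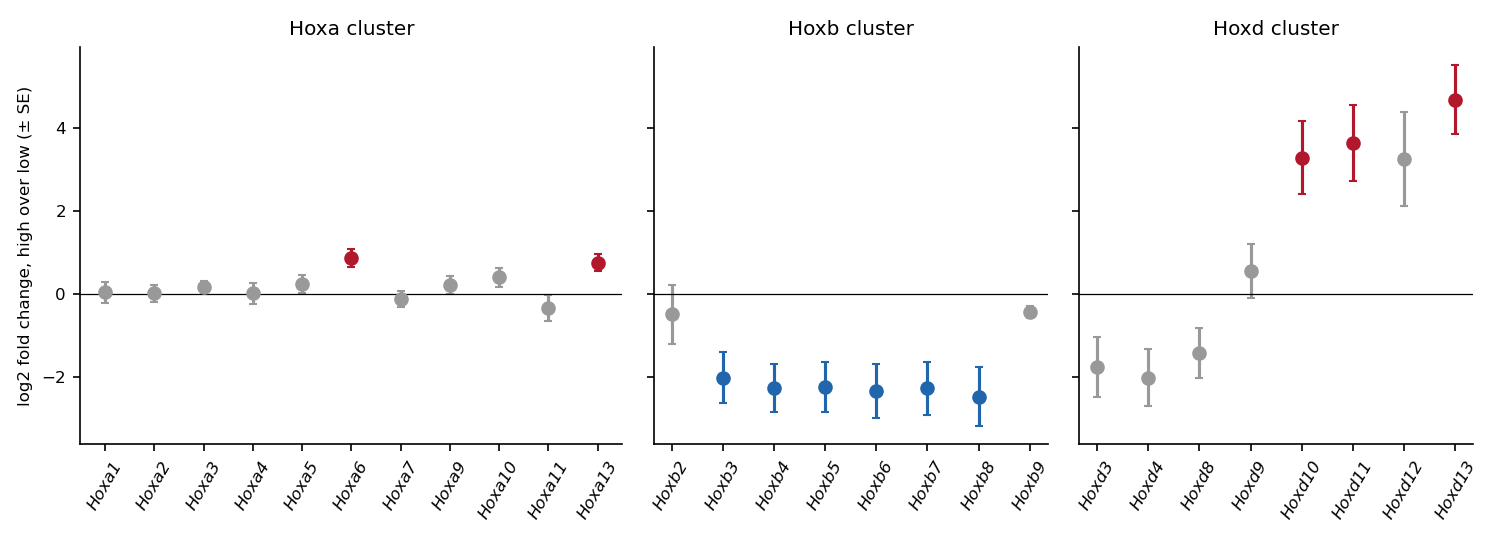
Log2 fold change of high over low libraries (vertical axis, points with SE bars) for the tested genes of the *Hoxa*, *Hoxb* and *Hoxd* clusters in order of paralog group, with called genes in red (higher) or blue (lower) and others in grey. *Hoxb3* to *Hoxb8* sit between -2.01 and -2.47, and *Hoxd13* is at 4.67.

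The promoter windows of *Hoxd13* and *Hoxb8* are shown because these 2 had the largest log2 fold changes among called *Hox* genes in either direction, and those of *Casp14* and *Slc10a2* because they are leading genes whose windows hold a motif. Windows run from 250 bases before to 50 after the RefSeq start on GRCm38.p6. Capitals mark the letters CAATAAA on either strand, found within sequences that group 13 Hox proteins are known to bind. They also mark TCGTAAA, another such motif, and neither motif contains the other. The windows, 5′ to 3′ on the gene's strand, are chr2:74667975-74668274 (+) for *Hoxd13*, chr11:96281655-96281954 (+) for *Hoxb8*, chr10:78718244-78718543 (-) for *Casp14* and chr8:5105238-5105537 (-) for *Slc10a2*.
Hoxd13: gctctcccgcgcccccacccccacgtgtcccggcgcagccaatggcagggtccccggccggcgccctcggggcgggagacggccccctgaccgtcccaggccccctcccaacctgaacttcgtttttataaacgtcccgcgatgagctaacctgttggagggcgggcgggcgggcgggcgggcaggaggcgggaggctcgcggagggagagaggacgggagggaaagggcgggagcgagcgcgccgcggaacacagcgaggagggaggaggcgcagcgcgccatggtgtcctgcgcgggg
Hoxb8: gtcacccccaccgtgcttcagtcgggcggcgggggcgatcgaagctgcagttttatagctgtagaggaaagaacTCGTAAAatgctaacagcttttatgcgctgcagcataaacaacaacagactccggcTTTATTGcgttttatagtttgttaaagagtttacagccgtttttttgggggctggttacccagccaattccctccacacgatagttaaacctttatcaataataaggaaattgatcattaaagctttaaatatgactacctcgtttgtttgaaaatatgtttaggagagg
Casp14: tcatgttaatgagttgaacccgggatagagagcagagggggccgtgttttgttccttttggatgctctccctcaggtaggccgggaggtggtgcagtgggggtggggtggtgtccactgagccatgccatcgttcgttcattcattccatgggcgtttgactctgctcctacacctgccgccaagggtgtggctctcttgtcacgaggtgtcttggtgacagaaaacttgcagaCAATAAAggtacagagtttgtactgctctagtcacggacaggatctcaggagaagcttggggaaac
Slc10a2: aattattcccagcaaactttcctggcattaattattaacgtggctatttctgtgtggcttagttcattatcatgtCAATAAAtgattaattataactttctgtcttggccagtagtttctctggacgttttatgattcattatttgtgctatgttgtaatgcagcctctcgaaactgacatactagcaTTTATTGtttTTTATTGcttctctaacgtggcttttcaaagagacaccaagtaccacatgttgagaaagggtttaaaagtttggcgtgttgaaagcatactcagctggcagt

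The window of *Hoxd13* holds neither motif, that of *Hoxb8* holds both, and those of *Casp14* and *Slc10a2* hold CAATAAA. Among all genes, CAATAAA occurred in 5.33% of all 27025 genes with a window, 3.34% of those tested, 4.36% of 321 called higher and 5.43% of 350 called lower. TCGTAAA occurred in 0.681% of all genes with a window, 0.805% of those tested, 0.935% of those called higher (3 genes) and 2.29% of those called lower (8 genes). Windows were found for 83 of the 118 named genes, and not for *Hoxb13*, *Hoxb6* or *Car1*. A match describes letters in the window only.

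Among regional transcription factors, 0 of 25 were called higher and 4 lower, with a median of -0.06. *Isx*, an intestinal homeobox gene that restrains vitamin A uptake, was at 0.210 to 71.6 FPKM in the high libraries (median 12.1) and 10.7 to 99.7 FPKM in the low (median 47.3), with a log2 fold change of -1.83 ± 0.48 (adjusted p = 0.0198). *Nr1h4*, the bile acid receptor FXR, fell by 0.56 on the log2 scale (SE 0.14, adjusted p = 0.015), and *Pparg*, a fatty acid receptor, by 0.47 (SE 0.13, adjusted p = 0.0274). *Pparg* was called in 19 of 24 fits that left out 1 library (highest adjusted p 0.0583, without replicate 5 of females at 9 weeks). *Cdx2* was called at -0.93 ± 0.30 (adjusted p = 0.0497), but in only 5 of 24 such fits, with a highest adjusted p of 0.0894 without male vehicle replicate 5. Without male vehicle replicate 1, where *Cdx2* was lowest, its estimate was smaller with a narrower SE and was called (-0.72 ± 0.13, adjusted p = 0.00365). *Osr2*, a transcription factor of the proximal colon, had a mean of 4.96 FPKM in the high and 19.6 FPKM in the low libraries, an estimate of -2.95 ± 0.97 that missed the threshold (adjusted p = 0.0516).

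Known regional markers moved unevenly. Of 10 distal colon genes, of which 5 were *Hox* genes, 6 were called higher and 0 lower, with a median of 2.55. Without male vehicle replicate 1 the count was 4, with *Hoxd10*, *Hoxd11* and *Scnn1g* lost and *Insl5* gained. Of 7 proximal colon genes, 1 was called higher and 2 lower, with a median of -0.49. Of the 6 distal calls, 4 were *Hox* genes, and the others were *Fxyd4* and *Scnn1g*. *Mettl7b*, a methyltransferase-like enzyme, was at 39.2 to 241 FPKM in the high and 113 to 371 FPKM in the low libraries (medians 107 and 218), lower in all 6 groups (-1.11 ± 0.20, adjusted p = 0.00222). *Cyp2c55*, a cytochrome P450 of the colon, was at 293 and 850 FPKM in the median high and low library (-1.18 ± 0.37, adjusted p = 0.0425), called in 10 of 24 fits that left out 1 library and not without male vehicle replicate 1 (adjusted p = 0.0674). *Slc37a2*, a sugar phosphate exchanger on the same list, went against it, with 44.3 FPKM in the median high and 8.40 FPKM in the median low library (2.19 ± 0.62, adjusted p = 0.0276). It kept its call in 20 of 24 such fits (highest adjusted p 0.068, without replicate 5 of females at 15 weeks). *Ang4* and *Retnlb*, antimicrobial products of goblet and Paneth-like cells, had 0.32 ± 0.67 (adjusted p = 0.779) and -0.49 ± 0.64 (adjusted p = 0.642) and were not called.

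Sodium and potassium transport genes held some of the widest differences. *Fxyd4*, also named corticosteroid hormone-induced factor, a regulator of the sodium pump, was at 0.922 to 49.3 FPKM in the high libraries (median 2.92) and 0 to 14.0 FPKM in the low libraries (median 0.269). High libraries were above low ones in all 6 groups and apart from them in 5, and the log2 fold change was 3.25 ± 0.57 (adjusted p = 0.00218). *Atp12a*, the colonic proton-potassium pump, ranged from 14.1 to 224 FPKM in the high and from 0.0897 to 104 FPKM in the low libraries (medians 62.2 and 13.9). Its sets did not overlap in any of the 6 groups, and its log2 fold change was 2.28 ± 0.59 (adjusted p = 0.0168). *Scnn1g*, a subunit of the epithelial sodium channel, was at 0.455 and 0.0541 FPKM in the median high and low library (1.86 ± 0.59, adjusted p = 0.0452), and it kept its call in 7 of 24 fits that left out 1 library, with an adjusted p of 0.115 without male vehicle replicate 1. In all, 3 of 15 aldosterone-responsive genes were called higher and 0 lower, with a median of 0.10. *Scnn1b*, another subunit of the channel, had -0.06 ± 0.25 (adjusted p = 0.906) and was not called.

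Other leading genes of the high libraries were transporters, proteases and enzymes. *Trpv6*, the calcium channel of absorptive epithelium, was at 0.431 to 10.9 FPKM against 0 to 7.01 FPKM (medians 3.15 and 0.539) and had a log2 fold change of 2.44 ± 0.55 (adjusted p = 0.00867). *Casp14*, a caspase of cornifying epithelia, was at 0.675 to 33.2 FPKM in the high and 0 to 7.67 FPKM in the low libraries (2.89 ± 0.56, adjusted p = 0.00395). *Tmprss13*, a membrane serine protease, was at 0.143 to 3.82 FPKM against 0 to 1.36 FPKM (2.76 ± 0.50, adjusted p = 0.00264), with high and low libraries apart in all 6 groups. The remaining leaders were *Mettl7a3* (2.84 ± 0.45), *Itih2* (2.63 ± 0.51), *Defb45* (2.42 ± 0.55), *Rims4* (2.39 ± 0.51), *Mettl7a2* (2.35 ± 0.42) and *Chit1* (2.30 ± 0.43), with adjusted p-values from 0.00161 to 0.00852. *Mettl7a2* and *Mettl7a3* are close copies whose reads may be split. All 12 leading genes higher in the high libraries were called in each of the 24 fits that left out 1 library. With only the highest and lowest library of each group, *Tmprss13*, *Rims4*, *Mettl7a2* and *Atp12a* were not called. Their log2 fold changes there were 2.80 to 3.86. In that setting 38 of the 78 named genes that were called lost their call.

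**Figure D3:**
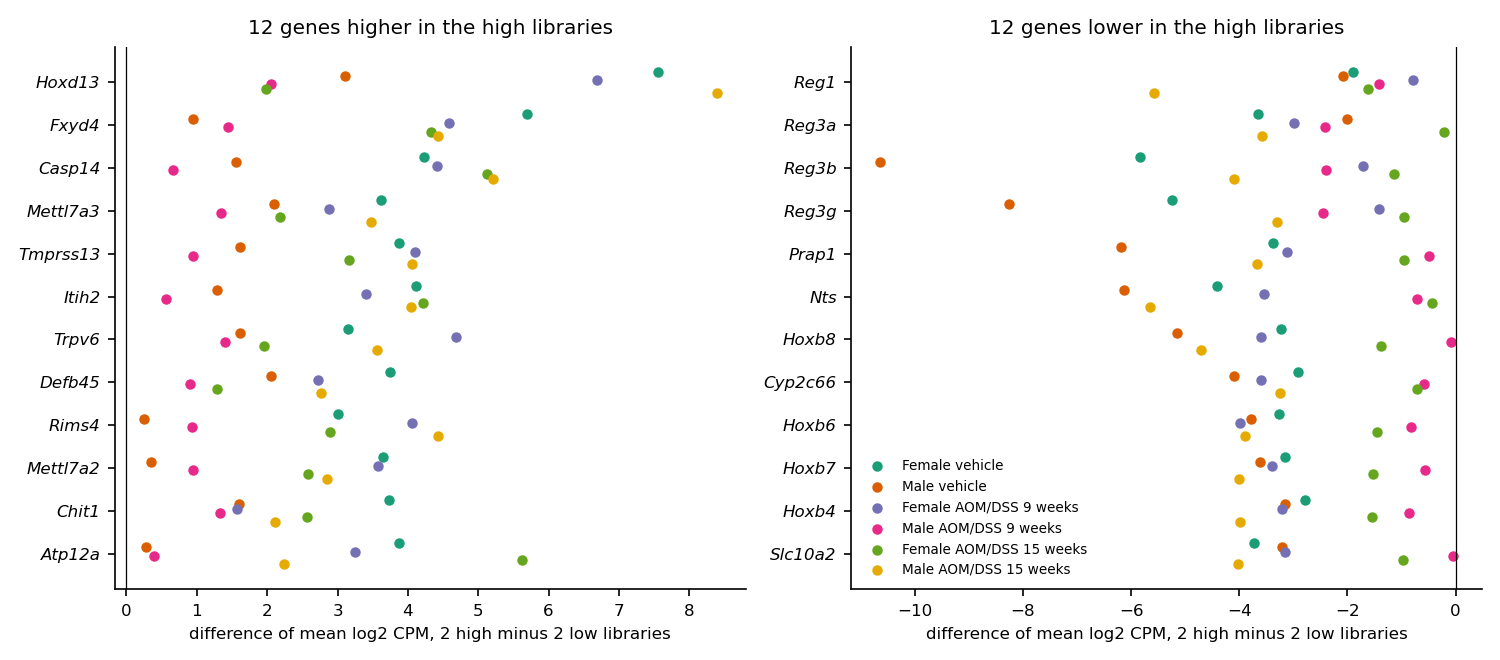
Difference of mean log2 CPM between the 2 high and the 2 low libraries of each group (horizontal axis) for the 12 leading genes in either direction (rows), 1 coloured point per group. Points lie on 1 side of 0 for every gene because the rule for leading genes required it, and those of males at 9 weeks are often nearest to 0, as for *Hoxb8* at -0.09.

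Absorptive colonocyte genes fell in part. *Car1*, the carbonic anhydrase of surface colonocytes, was at 427 to 6175 FPKM in the high libraries (median 808) and 640 to 8221 FPKM in the low libraries (median 3539). It was lower in all 6 groups, with the sets apart in 4, and had a log2 fold change of -1.75 ± 0.41 (adjusted p = 0.0109). *Guca2a*, the precursor of guanylin, which drives fluid secretion, was at 976 and 1848 FPKM in the median high and low library (-0.997 ± 0.229, adjusted p = 0.00938). *Guca2b*, the precursor of uroguanylin, had a log2 fold change of -0.77 ± 0.16 (adjusted p = 0.00665), and *Krt20*, a keratin of mature colonocytes, one of -0.51 ± 0.09 (adjusted p = 0.00218). *Slc26a3*, the main chloride-bicarbonate exchanger of the colon, rose from 200 to 289 FPKM in the median library (0.59 ± 0.18, adjusted p = 0.0349), in 14 of 24 fits that left out 1 library (highest adjusted p 0.065, without replicate 4 of males at 15 weeks). Of 20 water, anion and short-chain fatty acid transport genes, 2 were called higher and 5 lower, with a median of 0.08.

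Genes of small intestinal absorption that were called were lower in the high libraries, with 0 of 14 called higher, 4 called lower and a median of -0.72. *Fabp2*, the intestinal fatty acid binding protein, was at 6.20 to 338 FPKM in the high and 109 to 498 FPKM in the low libraries (means 153.6 and 319.3), lower in all 6 groups and apart in 5 (-1.43 ± 0.34, adjusted p = 0.011). *Alpi*, intestinal alkaline phosphatase, was at 4.28 and 8.97 FPKM in the median high and low library (-1.37 ± 0.37, adjusted p = 0.0222). *Slc10a2*, the bile acid transporter of the ileum, had medians of 1.39 and 12.04 FPKM (-2.25 ± 0.69, adjusted p = 0.0392). It was called in 11 of 24 fits that left out 1 library, and not without male vehicle replicate 1 (adjusted p = 0.0533), and *Mep1a*, a brush border protease, in 8, and not without that library (adjusted p = 0.064). *Lct* and *Apoa4*, which define small intestinal enterocytes, were at most 0.0797 and 0.209 FPKM in any library. Other small intestinal genes reached higher levels in some libraries. *Sis* was at up to 11.7 FPKM (median 0.184), *Fabp6* at up to 64.2 FPKM (median 4.65) and *Defa24* at up to 58.4 FPKM (0 in 16 libraries). Whether some scrapings held small intestinal tissue was not tested.

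**Figure D4:**
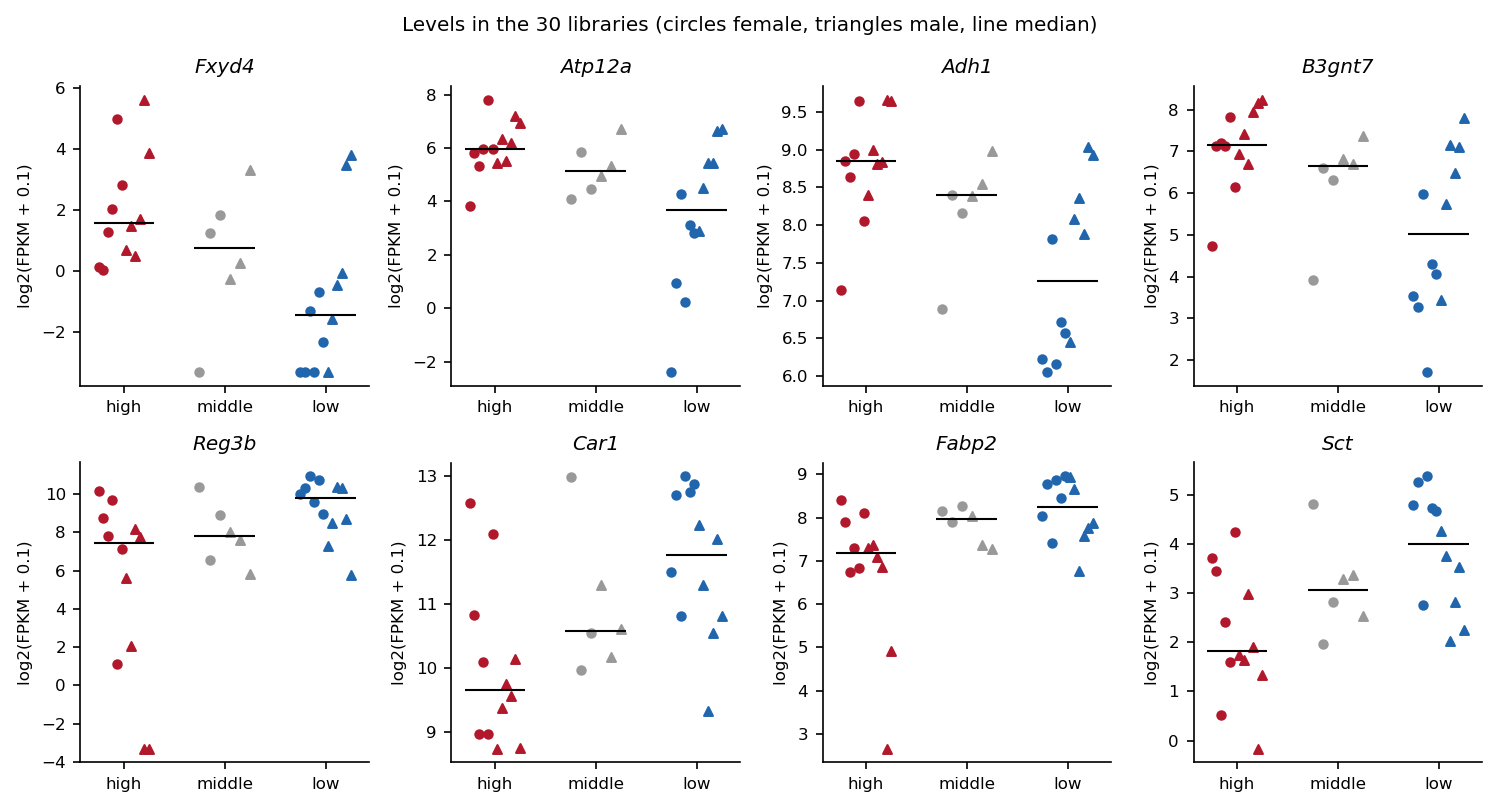
Levels of 8 genes as log2(FPKM + 0.1) (vertical axis) in the high (red), middle (grey) and low (blue) libraries, with circles for females, triangles for males and a line at the median. The median falls from high to low for *Fxyd4*, *Atp12a*, *Adh1* and *B3gnt7* and rises for *Reg3b*, *Car1*, *Fabp2* and *Sct*, and the points of the sets overlap in every panel.

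The Reg lectins, antimicrobial proteins secreted by the epithelium, led the genes lower in the high libraries. *Reg3b* was at 0 to 1128 FPKM in the high libraries (median 177.5) and 55.2 to 1967 FPKM in the low libraries (median 911). In all 6 groups both high libraries lay below both low libraries, and the log2 fold change was -3.04 ± 0.83 (adjusted p = 0.0223). The widest gap was in male vehicle, where both high libraries were listed at 0. *Reg3g*, which binds Gram-positive bacteria, was at 0 to 314 FPKM in the high and 22.4 to 667 FPKM in the low libraries (-2.90 ± 0.67, adjusted p = 0.00952). *Reg3a* (-3.06 ± 0.74, adjusted p = 0.0118) and *Reg1* (-3.72 ± 0.93, adjusted p = 0.0147) had low levels, at most 3.25 and 21.9 FPKM, and *Reg1* lost its call without replicate 5 of males at 15 weeks (adjusted p = 0.0116), where the FPKM minimum was not met. *Prap1*, a proline-rich acidic protein of the gut epithelium, was also among the genes with the largest decreases (-2.52 ± 0.61, adjusted p = 0.0124). *Reg4*, a lectin of enteroendocrine and deep crypt secretory cells, went the other way, with means of 211 FPKM in the high and 76.6 FPKM in the low libraries (1.44 ± 0.40, adjusted p = 0.0257). Of 11 Paneth and Reg genes, 1 was called higher and 5 lower, with a median of -0.69. The *Reg3* genes are similar in sequence and their reads may be split. These calls depended on how libraries were ranked. With libraries ranked by *Hoxd13*, *Reg3b* and *Reg3g* were not called (adjusted p = 0.0708 and 0.0877), and *Reg3b* was not called with libraries ranked by *Hoxb13* FPKM (adjusted p = 0.0707). With *Hoxb13* as a continuous covariate, *Reg1*, *Reg3b* and *Reg3g* were not called (adjusted p = 0.0522, 0.126 and 0.141). With only the highest and lowest library of each group none of the 4 was called: *Reg3b* and *Reg3g* had adjusted p-values of 0.128 and 0.116, and *Reg1* and *Reg3a* (0.017 and 0.0458) did not meet the FPKM minimum.

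Among goblet cell genes, 1 of 17 was called higher and 3 lower, with a median of -0.08. *Muc2*, the main gel-forming mucin, was at 486 to 4033 FPKM in the high and 1825 to 4693 FPKM in the low libraries (medians 1959 and 3537), with a log2 fold change of -0.93 ± 0.23 (adjusted p = 0.013). *Best2*, a bicarbonate channel of colonic goblet cells, was at 6.25 and 1.79 FPKM in the median high and low library and higher in all 6 groups (1.37 ± 0.31, adjusted p = 0.00908). Enzymes that build mucosal glycans moved both ways, with 3 of 21 called higher, 5 lower and a median of -0.06. *B3gnt7* was at 26.3 to 303 FPKM against 3.15 to 224 FPKM (1.83 ± 0.42, adjusted p = 0.00884), and *St3gal6*, a sialyltransferase, had a log2 fold change of 1.03 ± 0.18 (adjusted p = 0.00198). *Gcnt3*, which branches mucin O-glycans, was at 24.5 and 59.2 FPKM in the median high and low library (-1.26 ± 0.26, adjusted p = 0.00531). *B4galnt1* fell by 1.35 on the log2 scale (SE 0.31, adjusted p = 0.00979), and *Galnt12*, which starts mucin O-glycans, by 0.53 (SE 0.10, adjusted p = 0.00282) with the sets apart in all 6 groups.

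Enteroendocrine transcripts differed by product. *Sct*, secretin, was at 0.792 to 18.7 FPKM in the high libraries (median 3.43) and 3.96 to 41.4 FPKM in the low libraries (median 16.2), apart in 5 of 6 groups (-1.86 ± 0.41, adjusted p = 0.00752). *Cck*, cholecystokinin, fell by 0.97 on the log2 scale (SE 0.25, adjusted p = 0.0164). *Nts*, neurotensin, had medians of 0.614 and 8.47 FPKM (-2.49 ± 0.75, adjusted p = 0.0375) and kept its call in 12 of 24 fits that left out 1 library, but not without male vehicle replicate 1 (adjusted p = 0.0562). *Scg2*, a secretogranin of neuroendocrine granules, was higher in all 6 groups, with medians of 1.03 and 0.188 FPKM (1.91 ± 0.28, adjusted p = 0.0014). It lost its call without male vehicle replicate 1, where the adjusted p was 0.00184 and the FPKM minimum was not met. *Insl5*, a hormone of distal L cells, had 1.51 ± 0.53 (adjusted p = 0.0681), and *Gcg* and *Pyy*, the other L cell hormones, had -0.21 ± 0.24 (adjusted p = 0.583) and 0.15 ± 0.20 (adjusted p = 0.651), none of them called. In all, 1 of 18 enteroendocrine genes was called higher and 5 lower, with a median of -0.26. None of 15 tuft cell genes was called at an adjusted p below 0.05 by edgeR, although 5 had an unadjusted p below 0.05. Of these 15 genes, 2 had a positive log2 fold change, and the median was -0.43, or -0.30 without male vehicle replicate 1.

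Of the 24 phase I and II detoxification genes, 2 had a positive log2 fold change, 1 was called higher and 7 lower, with a median of -0.56. *Adh1*, an alcohol and retinol dehydrogenase, was the exception, at 141 to 811 FPKM in the high libraries (median 460) and 66.1 to 526 FPKM in the low libraries (median 165). Its sets were apart in all 6 groups, the middle library lay between them in all 6, and the log2 fold change was 1.31 ± 0.25 (adjusted p = 0.00325). *Aldh1a1*, which makes retinoic acid, was at 27.3 and 92.5 FPKM in the median high and low library (-1.69 ± 0.43, adjusted p = 0.0153), and *Cyp2c65*, a cytochrome P450, at 20.8 and 86.4 FPKM (-1.81 ± 0.45, adjusted p = 0.0139). *Cyp2c66* had medians of 0.422 and 3.02 FPKM (-2.33 ± 0.72, adjusted p = 0.0404) and was called in 10 of 24 fits that left out 1 library, not without male vehicle replicate 1 (adjusted p = 0.0571). *Cyp2c* genes are similar in sequence and share reads to an unknown extent.

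*Cd36*, a fatty acid carrier, was called higher at 1.32 ± 0.42 (adjusted p = 0.0466) and kept its call in 8 of 24 fits that left out 1 library, but not without male vehicle replicate 1 (adjusted p = 0.07). Carboxylesterases moved both ways: *Ces2g* rose by 0.84 ± 0.15 (adjusted p = 0.00216), and *Ces2e* and *Ces2a* fell by 0.74 (SE 0.18, adjusted p = 0.0117) and 0.68 (SE 0.19, adjusted p = 0.0274). *Ces2a* lost its call without replicate 5 of females at 9 weeks (adjusted p = 0.0525). None of 16 cholesterol synthesis genes was called by edgeR, and 0 had an unadjusted p below 0.05.

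Proliferation genes gave no calls. Among 18 cell cycle genes none was called by edgeR, 2 had an unadjusted p below 0.05 and the median was -0.09. *Pcna*, a replication clamp, was at 26.5 to 59.5 FPKM in the high and 24.9 to 51.0 FPKM in the low libraries. Of 17 stem cell and Wnt target genes, 1 was called higher, *Znrf3*, a Wnt feedback inhibitor, at 0.50 ± 0.11 (adjusted p = 0.00708). Of 19 BMP and hedgehog genes, *Bmp2*, a ligand made by mature epithelium, was called higher (0.89 ± 0.19, adjusted p = 0.0066) and *Id3*, a BMP target, lower (-0.54 ± 0.14, adjusted p = 0.0209). Of 16 clock genes, *Clock* was the 1 called higher (0.41 ± 0.11, adjusted p = 0.0196), in 16 of 24 fits that left out 1 library, since its fold fell under the threshold in the others (lowest 0.36, without replicate 5 of males at 15 weeks). Of 6 gasdermins, *Dfna5* was the 1 called lower (-0.90 ± 0.22, adjusted p = 0.0124). Over all genes tested, 2.65% were called higher and 2.92% lower. Single calls in lists this short are thus given for the genes and not as results about their lists.

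Markers of other cell types moved with the sets to differing degrees. None of 12 smooth muscle genes was called by edgeR, 5 had an unadjusted p below 0.05, and the median was 1.501, or 0.59 without male vehicle replicate 1, when *Mylk* was called lower. Their summed level was 8.57 to 2590 FPKM in the high libraries (median 36.5) and 10.9 to 46.4 FPKM in the low libraries (median 22.2). Of 14 mesenchyme genes, 14 had a positive log2 fold change and 2 were called higher, with a median of 0.86. *Lum*, a fibroblast proteoglycan, was at 1.39 and 0.208 FPKM in the median high and low library (1.87 ± 0.43, adjusted p = 0.00966), and *Pdgfrb* had 0.49 ± 0.14 (adjusted p = 0.0311), called in 16 of 24 fits that left out 1 library and not without male vehicle replicate 1 (adjusted p = 0.0504). The summed mesenchyme level was 7.81 to 414 FPKM in the high libraries (median 75.7) and 8.82 to 75.4 FPKM in the low (median 33.4). *Uchl1*, of 8 neuron and glia genes, was called higher (1.38 ± 0.44, adjusted p = 0.0467), in 8 of those 24 fits, and not without that library (adjusted p = 0.0859). With 2.65% of all genes tested called higher, this 1 call is not a result about the list. With a smooth muscle score as covariate 470 genes were called higher and 475 lower, and with a mesenchyme score 481 and 374. Of 78 named genes that were called, 15 lost their call with the smooth muscle score and 33 with the mesenchyme score. With the mesenchyme score, *Hoxb3* to *Hoxb8*, *Hoxd10*, *Hoxd11* and *Hoxa13* were among those that lost it (adjusted p from 0.056 for *Hoxb5* to 0.119 for *Hoxb3*), with log2 fold changes that kept their direction: -1.69 for *Hoxb3*, -2.20 for *Hoxb5*, -1.99 for *Hoxb8*, 2.94 for *Hoxd11* and 0.64 for *Hoxa13*. *Hoxd13* kept its call (4.72, adjusted p = 0.0102). Others that lost it included *Hottip*, *Isx*, *Prap1*, *Cyp2c65*, *Aldh1a1*, *Ces2a*, *Slc26a3* and *Id3*. Adjusted p-values of these genes ran from 0.051 for *Prap1* to 0.0718 for *Ces2a*, with log2 fold changes in the same direction. Further named genes lost their call by more. The highest adjusted p-values were 0.185 for *Cd36*, 0.142 for *Slc10a2*, 0.129 for *Mep1a* and 0.123 for *Cyp2c55*. Their log2 fold changes were 0.73, -1.95, -0.37 and -0.89.

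Of 17 T and intraepithelial lymphocyte genes, 0 were called higher and 3 lower, with a median of -0.75. Of 14 B and plasma cell genes, 12 had a positive log2 fold change and none was called, with a median of 0.44. *Cd7*, a marker of intraepithelial lymphocytes, had medians of 2.30 and 3.42 FPKM (-1.10 ± 0.25, adjusted p = 0.00839), *Lck*, a T cell kinase, 2.06 and 2.40 FPKM (-0.59 ± 0.12, adjusted p = 0.00489), and *Nkg7*, of cytotoxic granules, 0.692 and 0.987 FPKM (-0.89 ± 0.27, adjusted p = 0.0361). *Nkg7* was called in 12 of 24 fits that left out 1 library and not without male vehicle replicate 1 (adjusted p = 0.0585). Of 14 B and plasma cell, 16 neutrophil and macrophage and 7 MHC class II genes, none was called by edgeR, with 1, 1 and 0 at an unadjusted p below 0.05. *Cd74*, the invariant chain, ranged from 16.4 to 655 FPKM in the high and from 6.89 to 1204 FPKM in the low libraries (0.18 ± 0.40, adjusted p = 0.798).

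**Figure D5:**
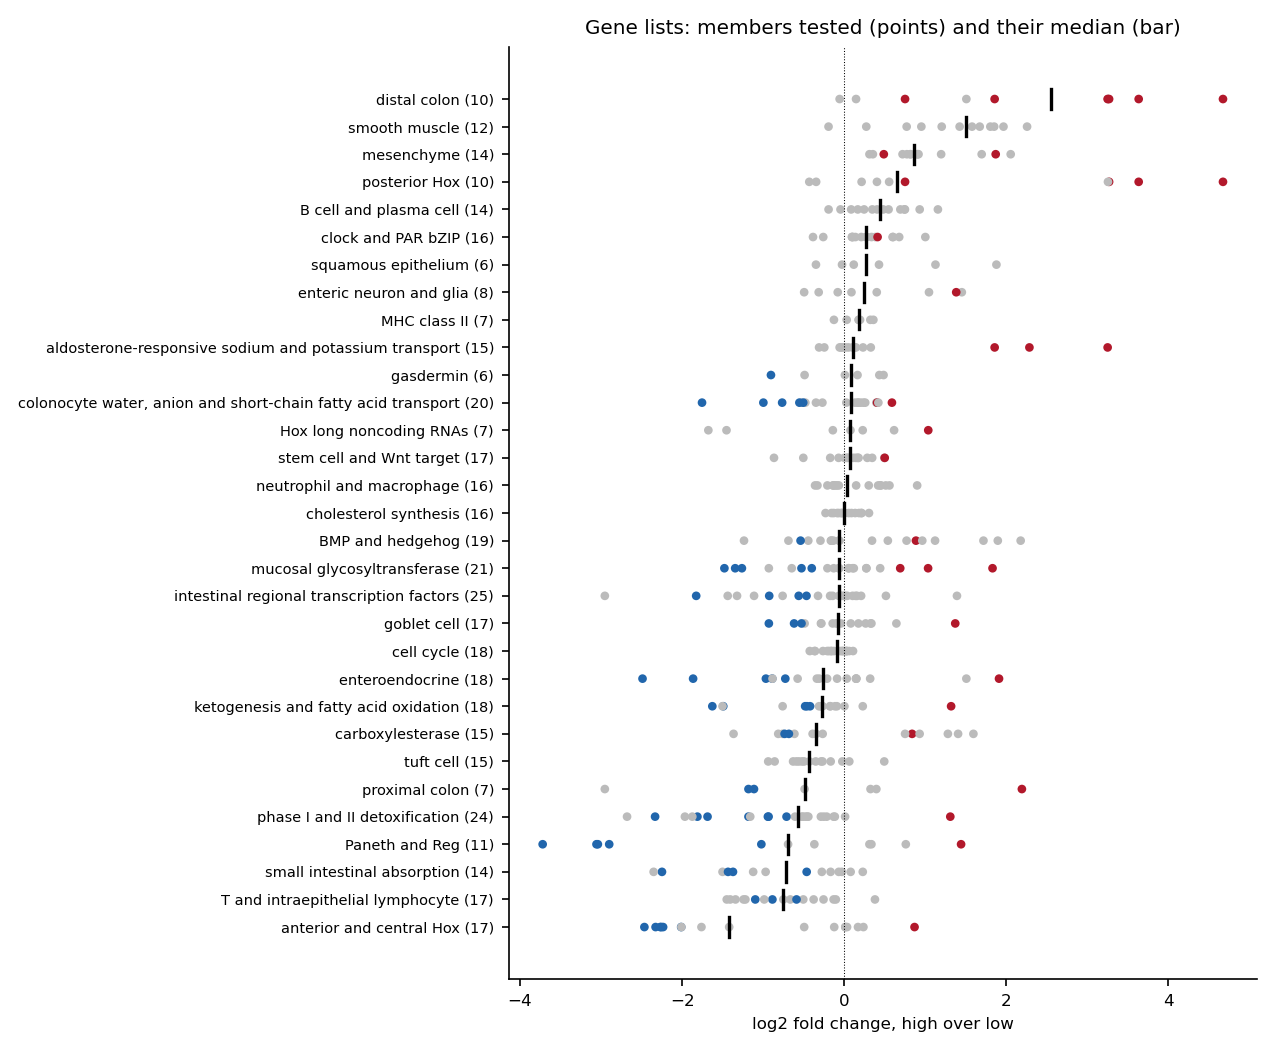
Log2 fold change of high over low libraries (horizontal axis) for each tested member of 31 gene lists (rows, number tested in brackets), with members called higher in red, lower in blue and others in grey, and a black bar at the list median. Medians run from -1.42 for anterior and central *Hox* genes to 2.55 for distal colon genes.

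The contrast was compared between treated and vehicle-treated colons. No gene of 16675 tested differed between AOM/DSS and vehicle in its high-low difference (0%, edgeR), with 1188 at an unadjusted p below 0.05 and 5 called by DESeq2. Without female vehicle replicate 5, the shallowest library, 39 genes were called. Between males and females 0 of 16675 genes differed (0%), with 470 at an unadjusted p below 0.05 and 0 called by DESeq2. Without replicate 1 of males at 15 weeks 1 gene was called. This does not show that the contrasts were alike. *Hoxd13* had a log2 fold change of 4.83 within vehicle (adjusted p = 0.0938) and 4.77 within AOM/DSS libraries (adjusted p = 0.0749), and 7.61 within females (adjusted p = 0.00914) and 3.36 within males (adjusted p = 0.261). *Fxyd4* had 5.69 and 0.94 as the difference of mean log2 CPM in female and male vehicle, 4.58 and 1.45 at 9 weeks, and 4.32 and 4.43 at 15 weeks. *Atp12a* had 3.87 and 0.27, 3.24 and 0.39, and 5.62 and 2.23 in the same order. These 2 genes differed least between the sets in male vehicle and in males at 9 weeks, whose *Hoxb13* contrasts were the narrowest. At 15 weeks *Fxyd4* differed alike in females and males, whose *Hoxb13* contrasts were 13.1-fold and 2.64-fold. *Reg3b* had -5.83 and -10.64 in female and male vehicle, -1.71 and -2.40 at 9 weeks, and -1.14 and -4.10 at 15 weeks. Its widest difference was thus in male vehicle. A relation to the width of the *Hoxb13* contrast was not tested.

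Fits within a condition had fewer libraries and called few genes. Vehicle libraries alone gave 0 calls (edgeR, 2978 genes at an unadjusted p below 0.05), AOM/DSS libraries 3 higher and 1 lower (3242), females 102 higher and 75 lower (3384) and males 1 higher (1995). Leaving out the 4 libraries of males at 9 weeks, a setting added after seeing the data, gave 629 calls higher and 749 lower.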

How the data were processed

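RNA of 30 colon epithelial scrapings was sequenced from poly(A)-selected, stranded libraries. Per the labels and the study's methods, the authors demultiplexed with bcl2fastq 2.20.0.422, trimmed with Trim Galore, aligned with STAR to mm10 (GRCm38), deposited counts from featureCounts for 46078 genes, and deposited FPKM values from StringTie for each library. The same deposited StringTie files held TPM values and per-base coverage, which the authors computed and which were not used here. The annotation version was not given in the sources used here. Repeated gene lines in the FPKM files (11 to 20 per file) were summed. Labels and methods differed in the RNA extraction reagents that they named.

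Libraries were ranked by *Hoxb13* CPM within each group, and 12 high were compared with 12 low by edgeR 4.0.16 (R 4.3.3; TMM, filterByExpr, quasi-likelihood test) with group as covariate and Benjamini-Hochberg adjustment over 16349 genes; *Hoxb13* was left out. SE was the log2 fold change divided by the root of F. FPKM served for levels and for the minimum of 1. DESeq2 1.42.0, other rankings, covariates, filters and subsets were alternatives. The scripts were tested on simulated data. Leading genes were the 12 called genes with the largest change each way that had the same direction in all 6 groups; up to 4 called members of each list, or the 2 with most FPKM where none was called, and the tested *Hox* genes were also named. Other list members were named after their values were seen. The members and lists were chosen with earlier results of these data known. Within groups, libraries correlated at 0.938 to 0.993 (Spearman, 60 pairs) and none was a copy of another. Replicate numbers were not taken as pairs of libraries: 12 of 75 same-numbered pairs had a correlation of deviations over 0.1. Results for some genes are not reported here.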

Additional observations from a re-analysis of the deposited data

Results flagged for a closer look

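In female vehicle, the total of replicate 5, a high library, was 9265804 counts, far below the median of 26580000 in the other 4 libraries of that group. In male vehicle, the smooth muscle score (mean log2 CPM over the list) of replicate 1, also a high library, was 8.90 against a median of 3.35 in the other 4. Both libraries lay beyond Dixon's critical value for their group, which chance alone passes in some groups.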

How the results depend on the processing

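Against 433 genes called higher and 478 lower, DESeq2 called 539 and 607, RLE normalization 442 and 476, and libraries ranked by *Hoxd13*, which share most libraries with the main sets, 573 and 617. When 1 library was left out the counts ran from 326 to 523 higher and from 303 to 641 lower. They were 646 and 978 with no fold threshold and 348 and 251 with the highest and lowest library of each group. Without males at 9 weeks, a setting added after seeing the data, they were 629 and 749. With *Hoxb13* as a continuous covariate they were 1353 and 1664. That fit used all 30 libraries and no fold threshold, so its counts are not on the same footing as 433 and 478. Subsets, with fewer libraries by construction, gave 0 calls in vehicle, 3 higher and 1 lower in AOM/DSS, 102 and 75 in female, and 1 and 0 in male libraries. With the replicate number as a block 655 genes were called higher and 740 lower. The labels did not say whether same-numbered libraries shared more than the number. Their deviations had a median correlation of -0.03 over 75 pairs, from -0.58 to 0.47, which cannot exclude shared handling. The difference between treatments, 0 genes by edgeR, was 5 by DESeq2, 413 (182 and 231) with no filter on low counts, and 0 to 39 when 1 library was left out. The difference between sexes, 0 genes, was 141 (7 and 134) with no filter and 0 to 1 when 1 library was left out. Where the construction of the alternative does not show it, the cause was not tested. No named gene that was called reversed direction under the alternatives run. With 5 libraries in a group, only 2 could be taken as high and 2 as low.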
